A study of Mus musculus with 40 samples.

Results

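The 10 white adipocyte genes Adipoq, Lep, Retn, Cfd, Plin1, Cidec, Lpl, Fabp4, Pparg and Car3 were followed by bulk RNAseq through the repair of a resected mouse rib. They are known fat cell genes, taken by symbol with earlier results of these data known, and all 10 were found among the 21204 genes of the filtered table, which was drawn from 48733 genes in all. The tissue was composite, holding bone, marrow and intercostal muscle, and all mice were wild type and, by the study's methods, female mice of a C57BL/6 background. Immature mice were 7 weeks old and mature mice were over 10 months old, and each age was sampled at baseline and on the day of resection (0dpr), then 2, 5 and 14 days post-resection (2dpr, 5dpr and 14dpr). No treatment other than the resection separated the groups. Baseline tissue was intact according to the methods of the study, whereas the sample labels describe it as collected after resection, and comparisons with baseline carry that doubt. Of 40 samples in 10 groups, 39 were analysed. The remaining sample, mature 5dpr replicate 2, was not analysed here. The mature 5dpr group thus had n = 3, and each of the other 9 groups had n = 4. The study's methods state that at least 3 biological samples were used per experiment. The labels do not say that replicates came from separate animals, so the p-values measure only the spread between these samples. How much of that spread is technical is not given.

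White adipocytes store triglyceride in a single large lipid droplet and secrete hormones, the adipokines, that report the state of the fat store. Lipoprotein lipase frees fatty acids from circulating lipoproteins, FABP4 carries them inside the cell, perilipin 1 and CIDEC coat and enlarge the droplet, and PPARγ is the transcription factor that drives this programme. Fat cells are found in bone marrow and between muscle fibres, both of which were part of the dissected tissue, and several of these genes are also used elsewhere: Car3 and Lpl in muscle fibres, Fabp4 in capillary endothelium, and Pparg in macrophages. In bulk tissue, fewer cells of a type and less RNA per cell cannot be told apart.

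The upstream sequence of the members is shown because all 10 moved together, and it allows a look for letters they share. RefSeq windows on GRCm38.p6, from 250 bases before to 50 bases after an annotated start, were matched to 7 of the 10 genes, 10 windows in all, with none for Fabp4, Lpl and Car3. The motif TTGCNNAA, the core letters of C/EBP family sites, was searched with its reverse TTNNGCAA, and it was present in 4 of the 10 windows, those of 4 genes. Among all 32851 windows of the same length, 10.8% held it. The letters AGGTCANAGGTCA, the repeat bound by PPARγ with its partner RXR, and the looser AGGNCANAGGNCA were in none of the 10 windows and in 0.0396% and 0.381% of all windows. These are matches of letters and say nothing on binding, and a window without a match says only that the letters are not in it. The 4 stretches with a match are given 5′ to 3′ on the strand of the gene, in lower case with the matches in capitals and with annotated exon bases left out. The Lep match reads the same on both strands, the Plin1 window has a further match inside the exon that is not printed, and the Cidec and Pparg stretches lie before internal starts, inside the genes but outside their exons.
Lep, chr6:29059971-29060219, plus strand: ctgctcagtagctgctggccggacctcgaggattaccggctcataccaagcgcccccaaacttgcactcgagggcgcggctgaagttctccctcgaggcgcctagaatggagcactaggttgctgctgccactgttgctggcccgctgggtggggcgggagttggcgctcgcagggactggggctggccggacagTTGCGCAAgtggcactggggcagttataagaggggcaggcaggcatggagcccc
Plin1, chr7:79732904-79733026, minus strand: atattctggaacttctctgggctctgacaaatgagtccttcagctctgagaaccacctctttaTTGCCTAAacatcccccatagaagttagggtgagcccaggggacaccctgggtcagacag
Cidec, chr6:113434765-113435014, minus strand: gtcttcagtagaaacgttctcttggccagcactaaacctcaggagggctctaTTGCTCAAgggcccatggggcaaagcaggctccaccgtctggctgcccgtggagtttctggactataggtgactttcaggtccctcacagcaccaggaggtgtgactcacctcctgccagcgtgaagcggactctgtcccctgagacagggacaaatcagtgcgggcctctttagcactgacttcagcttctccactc
Pparg, chr6:115421816-115422065, plus strand: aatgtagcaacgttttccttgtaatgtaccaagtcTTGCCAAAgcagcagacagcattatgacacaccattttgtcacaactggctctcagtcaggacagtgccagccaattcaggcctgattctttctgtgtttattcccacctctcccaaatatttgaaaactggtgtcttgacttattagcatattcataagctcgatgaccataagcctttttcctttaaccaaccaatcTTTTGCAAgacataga

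The libraries held between 6057756 and 21537070 counted reads (median 9087417). Gene positions are on GRCm38, and all 10 are annotated as protein-coding. Every member had reads in every library, and the lowest value was 13 reads, for Lep. Values are CPM, the share of a gene in the counted reads of its library with library sizes scaled by TMM (trimmed mean of M-values), and tests are edgeR's quasi-likelihood test with Benjamini-Hochberg adjustment over all 21204 genes and a threshold of 0.05. Mature 5dpr replicate 1 stood apart: all 10 members were above their group mean there, by 0.93 on the log2 scale on average, and differences from or to the mature 5dpr group are given with and without it. It was singled out by these same values, so leaving it out had to lower the mature 5dpr level. Fits without it rest on replicates 3 and 4 alone for that group.

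On a scale per length, Car3 was the most abundant member at 0dpr, at 4255 CPM per kb of its longest coding transcript in immature and 3356 in mature mice, and Cfd and Fabp4 followed at 1691 and 1097 in immature and 877 and 979 in mature mice. Adipoq, Lpl, Cidec, Retn and Plin1 lay between 57.9 and 278 CPM per kb in immature mice, and the transcription factor gene Pparg and the hormone gene Lep were lowest, at 22.1 and 10.9.

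The 10 genes followed a like course in both ages, with the highest group mean at 0dpr and lower means from 2dpr on. At 0dpr against baseline, 7 of the 10 passed the test as higher in immature mice, where 10.6% of all genes passed in either direction and 5.98% as higher. In mature mice 3 passed as higher, Lpl, Fabp4 and Car3, where 22.5% of all genes passed and 11.9% as higher. The 0dpr libraries were all above those of baseline for 9 genes in immature and 2 in mature mice, against 6.50% and 12.6% of all genes. At 2dpr against 0dpr all 10 were lower in both ages, where 44.0% of all genes passed in immature mice and 22.2% as lower, and 47.6% passed in mature mice and 24.9% as lower. Libraries of the 2 stages did not overlap for any of the 10 genes in that step, in either age, against 18.0% of all genes lower without overlap in immature and 19.9% in mature mice. The median log2 fold change of the 10 genes was −1.69 in immature and −1.55 in mature mice, beside −0.04 and −0.05 over all genes. Scaled by RLE size factors instead, the medians over all genes moved to −0.13 in both ages, and the 10 calls stayed. The 0dpr libraries enter both steps, so a high 0dpr level widens the rise and the fall alike.

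**Figure D1:**
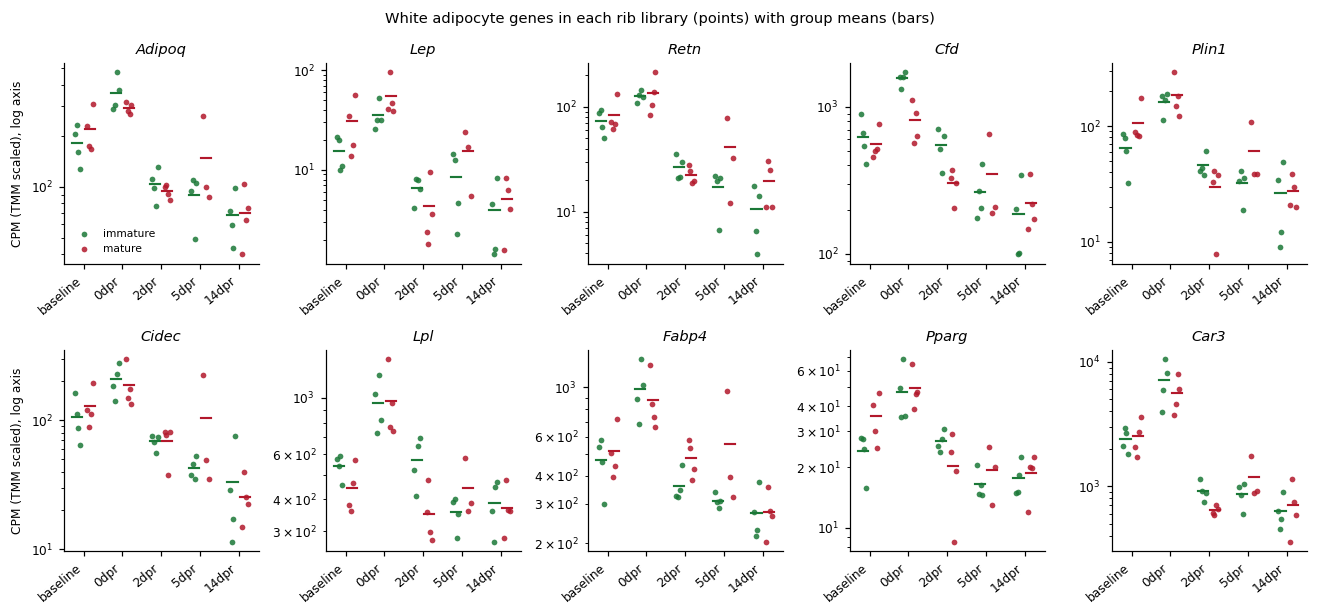
CPM of the 10 genes in each of the 39 libraries (y axis, log scale) by stage (x axis), immature mice in green and mature mice in red, with 1 point per library and a bar at each group mean. Group means are highest at 0dpr, and every 2dpr library lies below every 0dpr library of the same age. Lep reaches the lowest value, 1.42 CPM.

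Among the adipokines, Adipoq (adiponectin, a hormone of insulin sensitivity, chr16:23146536-23158028, plus strand) was at 204, 232, 161 and 127 CPM in the immature baseline libraries and at 289.5, 302, 474 and 371 CPM at 0dpr. The groups did not overlap, and the rise was past the threshold (log2 fold change 0.99, SE 0.29, adjusted p = 0.0283). At 2dpr the libraries read 110.4, 99.1, 77.2 and 130.2 CPM, below every 0dpr library, and the fall was 3.45-fold (log2 fold change −1.79, SE 0.30, adjusted p = 7.94e-06). In mature mice the baseline libraries were at 229, 174, 166 and 309 CPM and the 0dpr libraries at 315, 279, 269 and 302, overlapping, and that difference did not pass (log2 fold change 0.41, SE 0.29, adjusted p = 0.336). The mature 2dpr libraries, at 100.2, 103, 90.5 and 84.0 CPM, were again all below those of 0dpr (log2 fold change −1.63, SE 0.30, adjusted p = 2.55e-05).

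Lep (leptin, the satiety hormone that scales with fat mass, chr6:29060220-29073877, plus strand), whose upstream stretch with the palindromic match is shown above, had the lowest counts of the 10 genes. Immature libraries held 21.5, 20.1, 9.99 and 10.9 CPM at baseline and 25.8, 31.9, 52.9 and 31.9 CPM at 0dpr, without overlap, but the difference did not pass the test (log2 fold change 1.19, SE 0.54, adjusted p = 0.153). The 2dpr libraries held 4.19, 8.10, 7.96 and 6.39 CPM, a fall of 5.35-fold (log2 fold change −2.42, SE 0.57, adjusted p = 0.00073). Mature baseline libraries, at 34.8, 13.8, 17.8 and 56.1 CPM, overlapped the 0dpr libraries, at 41.3, 95.4, 47.1 and 38.9 CPM, where replicate 2 stood highest (log2 fold change 0.87, SE 0.53, adjusted p = 0.251). At 2dpr the mature libraries were at 2.40, 1.82, 9.44 and 3.61 CPM. That was the largest fall of any member in either age, 13.2-fold (log2 fold change −3.73, SE 0.60, adjusted p = 3.28e-06). With a library left out it lay between 9.83-fold, without mature 0dpr replicate 2, and 20.7-fold, without mature 2dpr replicate 3.

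Retn (resistin, a hormone made by adipocytes in mice, chr8:3655770-3660110, plus strand) went from 87.7, 93.2, 64.3 and 50.2 CPM at immature baseline to 108, 130.1, 146 and 125 CPM at 0dpr. These groups did not overlap either, and the difference did not pass (log2 fold change 0.79, SE 0.41, adjusted p = 0.225). At 2dpr the immature libraries read 35.4, 20.8, 21.4 and 29.7 CPM (log2 fold change −2.25, SE 0.43, adjusted p = 5.99e-05). Mature baseline libraries held 71.4, 61.7, 68.4 and 132 CPM, overlapping 0dpr, and the difference did not pass (log2 fold change 0.70, SE 0.41, adjusted p = 0.231). Mature libraries were at 83.5, 104, 139 and 215 CPM at 0dpr and close together at 2dpr, at 27.7, 24.4, 18.8 and 19.7 CPM, all lower than at 0dpr (log2 fold change −2.58, SE 0.44, adjusted p = 7.42e-06).

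Cfd (adipsin, complement factor D, a serine protease secreted by fat cells that starts the alternative complement pathway, chr10:79890853-79892655, plus strand) was at 889, 658, 545 and 409 CPM in immature baseline libraries and rose to 1603, 1328, 1584 and 1720.3 CPM at 0dpr (log2 fold change 1.32, SE 0.37, adjusted p = 0.0203). It fell to 704, 518, 355 and 634 CPM at 2dpr (log2 fold change −1.50, SE 0.37, adjusted p = 0.00119). In mature mice the 0dpr libraries, at 1119, 571, 906 and 637 CPM, overlapped those of baseline, at 458, 499, 516 and 764 CPM, and the difference did not pass (log2 fold change 0.53, SE 0.36, adjusted p = 0.313). All mature 2dpr libraries were lower than that, at 329.7, 374, 205 and 302 CPM (log2 fold change −1.42, SE 0.37, adjusted p = 0.00178).

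Of the lipid droplet genes, Plin1 (perilipin 1, which coats the droplet and gates lipolysis, chr7:79720218-79732903, minus strand) rose in immature mice from 86.4, 79.0, 61.3 and 32.3 CPM to 182, 112, 169.8 and 188 CPM (log2 fold change 1.33, SE 0.43, adjusted p = 0.0425), the groups apart from each other. It fell to 40.7, 43.9, 37.5 and 61.4 CPM at 2dpr (log2 fold change −1.83, SE 0.44, adjusted p = 0.000883). Mature baseline replicate 4, at 174 CPM, lay inside the range of the mature 0dpr libraries, 123 to 293 CPM, and the mature rise did not pass (log2 fold change 0.80, SE 0.43, adjusted p = 0.182). The mature 2dpr libraries, at 32.7, 41.0, 7.77 and 38.0 CPM, had 1 very low value, and the fall was 6.19-fold (log2 fold change −2.63, SE 0.45, adjusted p = 9.18e-06).

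Cidec (a droplet protein that makes droplets merge and grow, chr6:113424634-113435760, minus strand) was the 1 member whose immature baseline and 0dpr libraries overlapped, at 162, 112, 87.3 and 64.4 CPM against 185, 140.3, 228 and 278 CPM (log2 fold change 0.97, SE 0.45, adjusted p = 0.162). Its 2dpr libraries were close together and lower, at 75.4, 68.2, 55.4 and 74.7 CPM (log2 fold change −1.60, SE 0.45, adjusted p = 0.00419). In mature mice baseline, at 121, 88.2, 111 and 196 CPM, and 0dpr also overlapped (log2 fold change 0.54, SE 0.44, adjusted p = 0.41). It read 297, 148, 174 and 133 CPM at 0dpr and 80.9, 77.0, 37.7 and 81.1 CPM at 2dpr (log2 fold change −1.44, SE 0.45, adjusted p = 0.00852).

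Lpl (lipoprotein lipase, chr8:68880491-68907448, plus strand) was among the genes that rose in both ages at 0dpr. Immature libraries went from 578, 541, 592 and 457 to 1034, 726, 1232 and 820.4 CPM (log2 fold change 0.81, SE 0.22, adjusted p = 0.018), and mature libraries from 379.7, 359, 464 and 573 to 1418, 769, 954 and 744 CPM (log2 fold change 1.13, SE 0.22, adjusted p = 0.000476), without overlap in either. At 2dpr the immature libraries, at 519, 413, 645 and 696 CPM, stood at about their baseline level, and the fall from 0dpr was the smallest of the 10 in immature mice (log2 fold change −0.75, SE 0.22, adjusted p = 0.00651). The mature 2dpr libraries were at 356, 475, 297 and 277 CPM (log2 fold change −1.47, SE 0.23, adjusted p = 1.53e-06).

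Fabp4 (the fatty acid carrier, chr3:10204088-10208576, minus strand) rose from 543, 581, 463 and 299 to 884, 684, 1338 and 1024 CPM in immature mice (log2 fold change 1.06, SE 0.27, adjusted p = 0.0112) and fell to 326, 321, 347 and 447 CPM at 2dpr (log2 fold change −1.45, SE 0.27, adjusted p = 4.2e-05). In mature mice it was at 505, 397, 443 and 722 CPM at baseline and 1265, 841, 737 and 665 CPM at 0dpr, where baseline replicate 4 lay above the lowest 0dpr library (log2 fold change 0.76, SE 0.27, adjusted p = 0.0369). Its mature 2dpr libraries, at 582, 537, 382 and 432 CPM, gave the smallest fall of the 10 in mature mice (log2 fold change −0.86, SE 0.27, adjusted p = 0.00809). Without mature 0dpr replicate 1 that fall was −0.66 with an adjusted p of 0.0536.

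Pparg (the transcription factor, chr6:115360951-115490399, plus strand) rose from 28.0, 27.6, 24.5 and 15.8 to 49.0, 35.3, 68.3 and 35.6 CPM in immature mice (log2 fold change 0.98, SE 0.27, adjusted p = 0.0193) and was at 25.4, 23.6, 27.4 and 31.0 CPM at 2dpr (log2 fold change −0.81, SE 0.27, adjusted p = 0.0138). The call at 2dpr was lost without immature 0dpr replicate 3, the highest library, with a log2 fold change of −0.60 and an adjusted p of 0.0867. In mature mice it was at 40.8, 30.2, 24.9 and 46.6 CPM at baseline, 64.5, 38.9, 45.9 and 47.1 at 0dpr and 23.8, 29.3, 8.55 and 19.2 at 2dpr, and the last step passed (log2 fold change −1.28, SE 0.27, adjusted p = 0.000184) while the first did not (log2 fold change 0.46, SE 0.27, adjusted p = 0.22).

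Car3 (carbonic anhydrase 3, an enzyme abundant in fat cells and in slow muscle, chr3:14863512-14872523, plus strand) had the strongest rise and, in immature mice, the strongest fall. Immature libraries went from 2125, 2958, 2689 and 1823 CPM to 3931, 5969, 10503 and 8173 CPM (log2 fold change 1.57, SE 0.31, adjusted p = 0.0021) and then to 1137, 913, 744 and 879 CPM (log2 fold change −2.96, SE 0.33, adjusted p = 3.57e-09). Mature libraries went from 2056, 1715, 2719 and 3604 to 3773, 4626, 8046 and 6096 CPM (log2 fold change 1.16, SE 0.31, adjusted p = 0.00607) and then to 611, 583, 701 and 661 CPM, a fall of 8.82-fold (log2 fold change −3.14, SE 0.33, adjusted p = 7.64e-10). No 2dpr library reached the lowest baseline library in either age.

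The immature rise at 0dpr depended on the fit and on single libraries. Fitted on the 8 immature baseline and 0dpr libraries alone, 0 of the 10 genes passed, and 48 of all genes passed in place of 2257. The count of 7 became 1 without immature baseline replicate 6, the lowest baseline library for 9 of the 10 genes, 4 without baseline replicate 4 and 2 without 0dpr replicate 3. All 10 log2 fold changes stayed above 0 in each of these fits. Plin1 was the least firm of the 7, with the call lost in 7 of the 8 fits without a library, the exception being that without 0dpr replicate 2. Adipoq was lost in 4 of the 8, without baseline replicates 2, 4 and 6 and 0dpr replicate 3, and Lpl in 3, without baseline replicate 6 and 0dpr replicates 1 and 3. Fabp4 and Pparg were lost without baseline replicate 6 and without 0dpr replicate 3, Cfd without baseline replicates 4 and 6, and Car3 in none of the 8. In mature mice the Fabp4 rise was lost in 5 of the 8 fits with a library left out, those without baseline replicates 1, 2 and 3 and without 0dpr replicates 1 and 2.

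**Figure D2:**
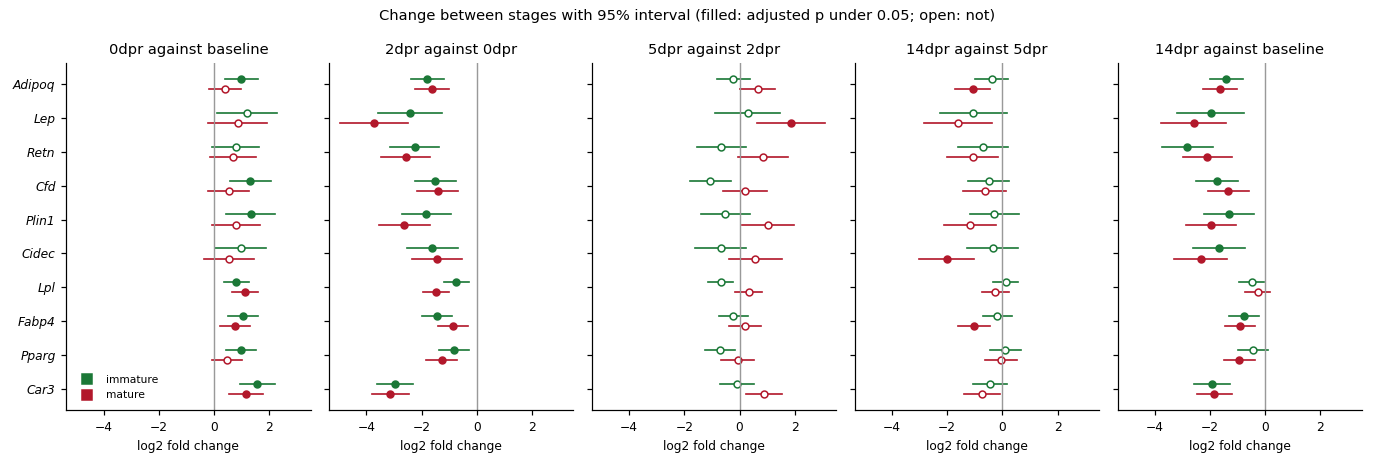
Log2 fold change (x axis) of the 10 genes (y axis) in 1 panel per stage comparison, immature mice in green and mature mice in red, with bars for the 95% confidence interval and filled points where the adjusted p was under 0.05. At 2dpr against 0dpr all points are filled and negative, from −3.73 for Lep in mature mice to −0.75 for Lpl in immature mice.

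From 2dpr to 5dpr the immature level did not change past the threshold for any of the 10 genes, while 8.05% of all genes passed. Before adjustment, 3 of the 10 had a p under 0.05, as did 19.9% of all genes, and DESeq2 called 2 as lower, Cfd and Lpl. Cidec, Lpl and Pparg had 5dpr libraries that were all below those of 2dpr, as had 9.55% of all genes. Lpl read 391, 402, 282 and 350.3 CPM at 5dpr (log2 fold change −0.67, SE 0.22, adjusted p = 0.0559), and Cfd read 176, 269, 205 and 406 CPM (log2 fold change −1.07, SE 0.37, adjusted p = 0.0689). In mature mice 1 of the 10 passed, Lep, where 14.5% of all genes passed and 8.16% as higher. The mature 5dpr libraries held 23.8, 17.0 and 5.54 CPM of Lep against 4.31 ± 3.49 (SD, n = 4) at 2dpr, with 1 library inside the 2dpr range (log2 fold change 1.87, SE 0.60, adjusted p = 0.0321). That call was lost in 5 of 7 fits that left out a library, among them the fit without mature 5dpr replicate 1, where the log2 fold change was 1.43 and the adjusted p 0.176, and the fits without mature 2dpr replicates 1, 2 and 4 and without mature 5dpr replicate 3. Without mature 2dpr replicate 3 it stayed, at 2.52. Car3 libraries at mature 5dpr, at 1737, 880.2 and 913 CPM, were all above those of 2dpr, as were those of 13.0% of all genes, and the difference did not pass (log2 fold change 0.88, SE 0.33, adjusted p = 0.0656), although DESeq2 called it. Without mature 5dpr replicate 1 the log2 fold change of Car3 was 0.49. Over the 10 genes the median log2 fold change of this step was 0.61 with that library and −0.02 without it, and 5 of the 10 changed sign, Adipoq to −0.02, Fabp4 to −0.43, Cfd to −0.61, Cidec to −0.71 and Retn to −0.02.

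Mature 5dpr replicate 1 weighed heavily in the mature 5dpr level. It held 260.3 CPM of Adipoq beside 99.2 and 87.1 in replicates 3 and 4, and replicates 1, 3 and 4 held 108, 38.6 and 38.5 CPM of Plin1, 225, 49.3 and 35.2 CPM of Cidec, 648, 188 and 208 CPM of Cfd and 78.8, 12.2 and 32.8 CPM of Retn. The library was the highest of its group for all 10 genes. The 10 genes summed to 4647, 2056 and 2050.0 CPM in replicates 1, 3 and 4, and 10 other white adipocyte genes summed to 674, 263 and 291 CPM. Skeletal muscle markers were lowest in the same library, at 13082, 20346 and 27263 CPM, and the erythroid markers were highest, at 1496, 709 and 765 CPM. The part of cell makeup in this library's values was not tested.

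From 5dpr to 14dpr 0 of the 10 genes passed in immature mice in edgeR's test, with 0 of the 10 at an unadjusted p under 0.05 and 0 called by DESeq2, where 3.18% of all genes passed and 14.0% had such an unadjusted p. In mature mice 3 passed as lower, where 4.18% of all genes passed and 2.23% as lower. These were Adipoq (log2 fold change −1.08, SE 0.31, adjusted p = 0.0431), Fabp4 (log2 fold change −1.02, SE 0.29, adjusted p = 0.0346) and Cidec (log2 fold change −2.01, SE 0.49, adjusted p = 0.0124), and the libraries of the stages overlapped for each. Without mature 5dpr replicate 1 the log2 fold changes were −0.40, −0.38 and −0.73, and none of the 3 passed. The median over the 10 genes went from −1.05 to −0.36, and Cfd and Pparg changed sign, to 0.17 and 0.18. With RLE size factors Adipoq did not pass, at −1.04 with an adjusted p of 0.0535. None passed without mature 14dpr replicate 1 either, and 1 passed, Cidec, without 14dpr replicate 3 or 4.

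At 14dpr most of the genes were below baseline, with 8 of the 10 lower in immature mice, where 31.4% of all genes passed and 15.1% as lower, and 9 of the 10 lower in mature mice, where 33.5% passed and 16.4% as lower. The groups did not overlap for 5 genes in immature and 9 in mature mice, against 18.9% and 18.4% of all genes lower without overlap. Lpl was the exception in both ages, with 358, 273, 446 and 466 CPM in immature (log2 fold change −0.49, SE 0.22, adjusted p = 0.0933) and 281, 477, 364 and 359 CPM in mature mice (log2 fold change −0.26, SE 0.22, adjusted p = 0.411), levels that overlapped baseline. Pparg did not pass in immature mice, at 14.9, 15.0, 18.3 and 22.4 CPM (log2 fold change −0.44, SE 0.27, adjusted p = 0.236), and passed in mature mice, at 11.9, 20.1, 19.8 and 22.5 CPM (log2 fold change −0.93, SE 0.27, adjusted p = 0.00704).

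Retn and Lep, both hormone genes, had the largest falls against baseline in immature mice. Retn held 17.4, 6.49, 3.91 and 14.2 CPM in immature 14dpr libraries (log2 fold change −2.82, SE 0.46, adjusted p = 7.52e-06) and 11.2, 30.4, 25.2 and 11.0 CPM in mature libraries (log2 fold change −2.10, SE 0.44, adjusted p = 0.000236). Lep held 4.51, 1.42, 1.63 and 8.28 CPM in immature (log2 fold change −1.98, SE 0.59, adjusted p = 0.00925) and 1.57, 8.27, 6.35 and 4.05 CPM in mature libraries (log2 fold change −2.59, SE 0.58, adjusted p = 0.000613). All mature Lep libraries at 14dpr lay below all baseline libraries. Without immature 14dpr replicate 4 the immature log2 fold change of Lep was −2.65.

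Adipoq was at 72.4, 59.6, 43.4 and 98.7 CPM in immature 14dpr libraries (log2 fold change −1.40, SE 0.30, adjusted p = 0.000344) and at 39.9, 104, 63.3 and 74.6 CPM in mature libraries (log2 fold change −1.64, SE 0.30, adjusted p = 4.6e-05), below every baseline library of the same age. Cfd was at 200.4, 99.0, 101 and 346 CPM in immature (log2 fold change −1.74, SE 0.37, adjusted p = 0.000374) and 148, 351, 218 and 172 CPM in mature mice (log2 fold change −1.33, SE 0.37, adjusted p = 0.00468). Car3 was at 635, 449, 547 and 898 CPM in immature (log2 fold change −1.92, SE 0.32, adjusted p = 9.31e-06) and 358, 1139, 739 and 581 CPM in mature mice (log2 fold change −1.84, SE 0.31, adjusted p = 1.65e-05), again with no overlap.

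The droplet and fatty acid genes were lower too. Plin1 read 34.5, 9.02, 12.2 and 49.1 CPM in immature (log2 fold change −1.31, SE 0.44, adjusted p = 0.0216) and 21.0, 38.9, 29.6 and 19.9 CPM in mature 14dpr libraries (log2 fold change −1.97, SE 0.45, adjusted p = 0.000665), and Cidec 29.0, 11.5, 17.2 and 76.0 CPM (log2 fold change −1.67, SE 0.46, adjusted p = 0.00487) and 14.9, 39.3, 25.4 and 22.2 CPM (log2 fold change −2.34, SE 0.47, adjusted p = 0.000167). Immature 14dpr replicate 4 was the highest library for both, inside the baseline range, and without it the log2 fold change of Cidec was −2.47. Fabp4 had the smallest falls of the genes that passed in immature mice, at 277, 215, 228 and 376 CPM (log2 fold change −0.78, SE 0.27, adjusted p = 0.0238), and in mature mice it was at 203, 358, 279.6 and 265 CPM (log2 fold change −0.90, SE 0.27, adjusted p = 0.00837). The immature calls of Fabp4 and Plin1 were lost in 4 of 8 fits that left out a library, those without immature baseline replicates 2 and 3 and without immature 14dpr replicates 2 and 3, and the mature Fabp4 call was lost without mature baseline replicate 4.

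Age was compared at each stage to ask whether the fat cell genes differ between immature and mature tissue. None of the 50 comparisons, 10 genes at 5 stages, passed edgeR's test, and 9 of 50 had an unadjusted p under 0.05, and DESeq2 called 0 of them. The smallest adjusted p was 0.145. Over all genes 0.585% passed at baseline, 0.726% at 0dpr, 0.627% at 2dpr, 0% at 5dpr, where DESeq2 called 33 genes, and 0.00943% at 14dpr. An unadjusted p under 0.05 was seen for 1, 1, 2, 5 and 0 of the 10 at these stages in turn, and for 11.7%, 10.7%, 13.3%, 5.10% and 4.57% of all genes. The log2 fold changes of immature over mature ranged from −1.27 to 0.95, and their 95% intervals reached from −2.25 to 1.86.

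Cfd at 0dpr had the widest gap in favour of immature mice, where its libraries, at 1603, 1328, 1584 and 1720.3 CPM, were all above the mature libraries, at 1119, 571, 906 and 637 CPM. Of all genes, 2.16% were higher in immature mice without overlap at 0dpr. The log2 fold change was 0.95 (SE 0.37, 95% interval 0.20 to 1.69), and the adjusted p was 0.271. At 2dpr Cfd was at 553 ± 152 CPM in immature and 303 ± 71.6 CPM in mature mice (SD, n = 4; log2 fold change 0.87, SE 0.37, adjusted p = 0.291) and Lpl at 568 ± 128 and 351 ± 88.9 CPM (log2 fold change 0.69, SE 0.22, adjusted p = 0.145). Car3 was higher in every immature than in every mature 2dpr library, at 1137, 913, 744 and 879 against 611, 583, 701 and 661 CPM (log2 fold change 0.52, SE 0.31, adjusted p = 0.478), as were 3.20% of all genes. At baseline Pparg was at 24.0 ± 5.68 CPM in immature and 35.6 ± 9.83 CPM in mature mice (log2 fold change −0.57, SE 0.27, adjusted p = 0.403).

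At 5dpr all 10 log2 fold changes were below 0, that is, lower in immature mice, with a median of −0.80 beside −0.02 over all genes. The unadjusted p was under 0.05 for 5 genes, Adipoq, Fabp4, Plin1, Cidec and Retn. These 5 differences were smaller in size without mature 5dpr replicate 1, which was the highest of its group for all 10 genes. Leaving out the highest library had to move them in this direction, and only replicates 3 and 4 then stood for mature 5dpr. With it the log2 fold changes of the 5 genes were −0.74, −0.85, −0.94, −1.27 and −1.27, and without it they were −0.07, −0.22, −0.27, 0.0093 and −0.40. Without that library the median over the 10 genes was −0.07, 7 of the 10 stayed below 0, and 0 had an unadjusted p under 0.05. Cfd went from −0.40 to 0.42, Pparg from −0.22 to 0.01, Lpl from −0.32 to −0.07, Car3 from −0.44 to −0.04 and Lep from −0.91 to −0.47.

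**Figure D3:**
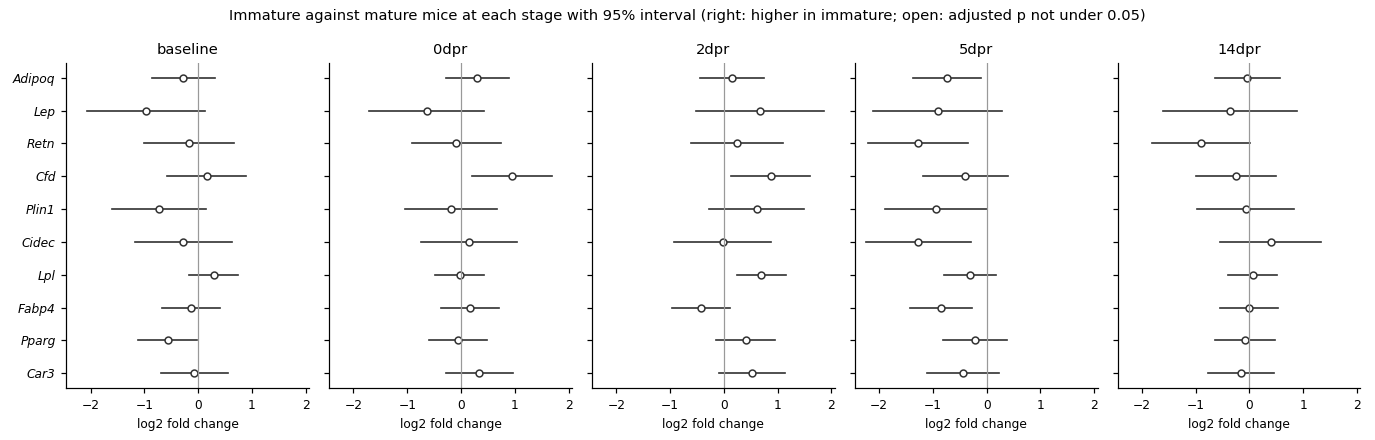
Log2 fold change of immature over mature mice (x axis, to the right where immature mice were higher) for the 10 genes (y axis), in 1 panel per stage, with bars for the 95% confidence interval. All 50 points are open, since no adjusted p was under 0.05, and all 10 lie below 0 at 5dpr, where their median is −0.80, or −0.07 without mature 5dpr replicate 1.

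The changes between stages were also compared between the ages by the interaction of age with stage. None of the 50 interactions passed edgeR's test, 9 had an unadjusted p under 0.05, DESeq2 called 0, and the smallest adjusted p was 0.381. Over all genes 0.0141% passed for the step from baseline to 0dpr, 0.0613% for 0dpr to 2dpr, 0% for 2dpr to 5dpr and for 5dpr to 14dpr, where DESeq2 called 36 and 5 genes, and 0.0472% for baseline to 14dpr. Of the 10 genes, 0, 1, 6, 2 and 0 had an unadjusted p under 0.05 in these steps, beside 8.07%, 11.2%, 8.09%, 4.25% and 7.98% of all genes. The 6 in the step from 2dpr to 5dpr were Adipoq, Plin1, Cfd, Lpl, Retn and Car3. Mature 5dpr replicate 1 enters that step, and without it 1 of the 10, Lpl, had an unadjusted p under 0.05. In the order given, the log2 differences of the 6 were −0.88, −1.55, −1.27, −1.01, −1.52 and −0.96 with it and −0.21, −0.88, −0.45, −0.77, −0.64 and −0.57 without it. In the step from 5dpr to 14dpr the 2 were Fabp4 and Cidec, at 0.84 and 1.66 with it and 0.20 and 0.38 without it. The Lpl fall from 0dpr to 2dpr was −0.75 in immature and −1.47 in mature mice, and the difference of 0.72 (SE 0.31) had an adjusted p of 0.381.

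The 10 genes rose and fell together across libraries, as a description over 39 libraries that share their stages. The 45 pairs had a median Pearson r of log2 CPM of 0.842, from 0.678 to 0.939, and after the group means were subtracted the median r was 0.592, from 0.0989 to 0.918. Adipoq was closest to the mean of the other members, at r = 0.968, and Lpl the farthest, at 0.848. Within groups Cidec, Adipoq and Fabp4 followed the others at 0.891, 0.883 and 0.878, and Pparg and Lep least, at 0.592 and 0.515. Some libraries stood to 1 side for every member: all 10 genes were above the group mean in mature 5dpr replicate 1, immature 14dpr replicate 4 (mean deviation 0.82 on the log2 scale), mature baseline replicate 4 (0.62), mature 14dpr replicate 2 (0.61), immature 0dpr replicate 3 (0.37) and immature baseline replicate 3 (0.28). None of the 10 was above it in mature 14dpr replicate 1 (−0.65), immature 14dpr replicate 2 (−0.61), immature 5dpr replicate 4 (−0.57), immature baseline replicate 6 (−0.53) or mature baseline replicate 2 (−0.38).

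**Figure D4:**
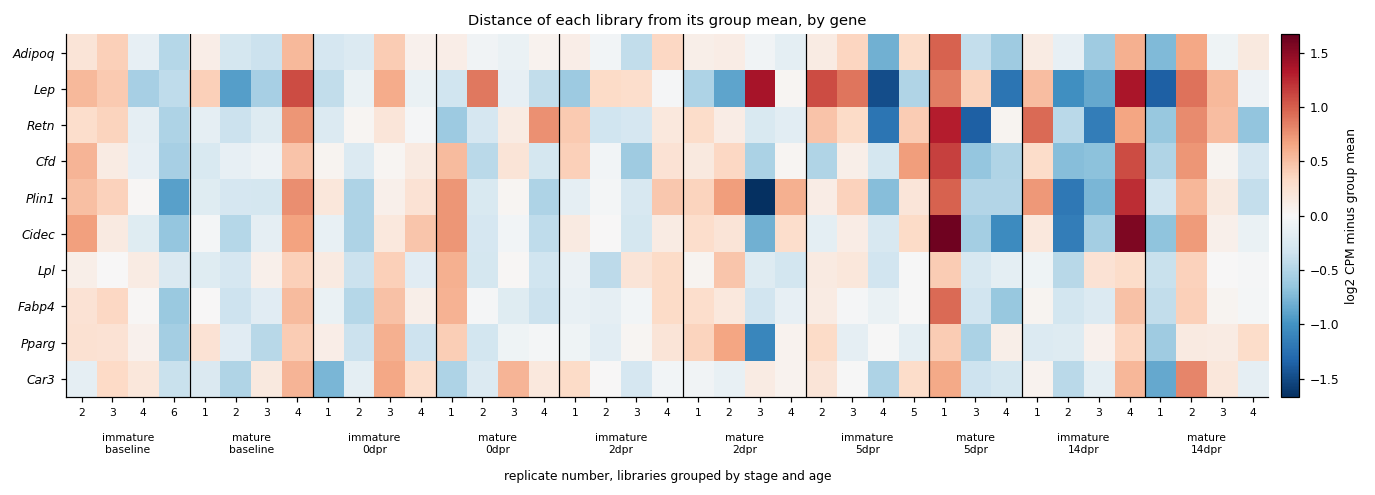
Heat map of log2 CPM minus the group mean for the 10 genes (rows) in the 39 libraries (columns, grouped by stage and age, numbered by replicate), red above and blue below the mean of the group. Mature 5dpr replicate 1, with a mean of 0.93, and immature 14dpr replicate 4, with 0.82, are red in every row.

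The genes most like the 10 over the 39 libraries, by the correlation of log2 CPM with their mean, were Lipe (hormone-sensitive lipase) at r = 0.964 and Ces1d (a carboxylesterase of fat cells) at 0.959, followed by Klhdc7a, Ephx2, Adrb3 (the adipocyte β3-adrenergic receptor), Acvr1c, Acsl1, Adipor2, Dgat2 and Pcx, down to 0.945. Among the 16137 genes compared the median r was −0.02. With the group means subtracted, the closest were Acvr1c at 0.903, Ces1d at 0.897, Glb1l2 at 0.873 and Lipe at 0.856, then Adrb3, Trarg1, Cdo1, A530016L24Rik, Ntrk2 and Dgat2. Lipe, Ces1d, Adrb3, Acvr1c and Dgat2 were in both sets.

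A wider set of fat cell genes moved in the same direction. The shares of all genes apply to these and the later lists. At 0dpr against baseline 5.98% of all genes passed as higher in immature and 11.9% in mature mice. As lower, 22.2% and 24.9% passed at 2dpr against 0dpr, and 15.1% and 16.4% at 14dpr against baseline. From 2dpr to 5dpr in mature mice 8.16% passed as higher. Of 10 other white adipocyte genes, 10 were lower at 2dpr than at 0dpr in immature mice and 9 in mature mice, with medians of −2.16 and −2.79. Plin4 and Gpd1 weigh most in the summed level of this list, with medians over all libraries of 162 and 145 CPM. Ces1d came next, at 30.1 CPM. The log2 fold change of Ces1d was −2.88 (SE 0.49, adjusted p = 9.45e-06) in immature and −4.22 (SE 0.52, adjusted p = 2.45e-08) in mature mice, and that of Gpd1, which makes the glycerol backbone of triglyceride, was −4.33 (SE 0.45, adjusted p = 5.94e-10) in mature mice. At 0dpr against baseline 3 of the 10 were higher in immature mice, Adig, Adrb3 and Acvr1c, and 2 in mature mice, Aqp7 and Gpd1. At 14dpr all 10 were lower than at baseline in both ages, with Adrb3 at −2.68 (SE 0.49, adjusted p = 4.19e-05) in immature and −2.48 (SE 0.46, adjusted p = 5.04e-05) in mature mice. From 2dpr to 5dpr 3 were higher in mature mice, Ces1d, Acvr1c and Gpd1, and 0 of the 10 passed without mature 5dpr replicate 1, where the log2 fold changes of the 3 were 0.89, 0.30 and 1.39 in place of 2.18, 1.43 and 1.67. Gpd1 was the 1 gene of the wider fat cell lists that passed between the ages, at 2dpr, where it was higher in immature mice (log2 fold change 2.12, SE 0.41, adjusted p = 0.00925).

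Of 18 genes of triglyceride storage and release, 14 were lower and 1 was higher at 2dpr than at 0dpr in each age. The falls included Slc2a4 (the insulin-regulated glucose transporter) at −2.86 (SE 0.25, adjusted p = 2.16e-11) in immature and −3.90 (SE 0.26, adjusted p = 2.83e-14) in mature mice, Pck1 at −3.29 and −2.88, and Dgat2, the last enzyme of triglyceride synthesis, at −2.21 and −2.93. With group means subtracted, the correlation with the mean of the members was 0.347 for Slc2a4, 0.630 for Pck1 and 0.811 for Dgat2. The gene that rose, named here after its value was seen, was Angptl4, a secreted inhibitor of lipoprotein lipase, by 0.95 in immature and 2.08 in mature mice on the log2 scale, and at 14dpr it was higher than at baseline in mature mice (log2 fold change 1.62, SE 0.30, adjusted p = 5.33e-05). At 0dpr against baseline 8 of the 18 were higher in immature and 10 in mature mice. At 14dpr against baseline 11 were lower and 1 higher in immature mice, and 12 lower and 1 higher in mature mice.

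Of 12 regulators of fat cell formation, 7 were lower at 2dpr than at 0dpr in each age and 0 higher, led by Klf15, a factor induced during adipogenesis, at −3.31 (SE 0.39, adjusted p = 1.1e-08) in immature and −3.56 (SE 0.39, adjusted p = 2.04e-09) in mature mice. Zfp423 and Ebf2, factors of the preadipocyte state, were at −1.19 and −1.08 in immature mice. At 14dpr the list was mixed: Klf15 was lower than at baseline, at −1.92 in immature and −2.17 in mature mice, while Dlk1, a preadipocyte surface protein that other mesenchymal cells also use, was higher, at 3.50 (SE 0.47, adjusted p = 3.95e-07) and 2.88 (SE 0.46, adjusted p = 5.74e-06), and so was Ebf2, at 0.62 and 1.03. Of the 4 receptors for adiponectin and leptin, Adipor1, Adipor2, Cdh13 and Lepr, all were lower at 2dpr than at 0dpr in both ages, with Lepr at −1.49 (SE 0.30, adjusted p = 0.000116) and −1.81 (SE 0.30, adjusted p = 5.39e-06). At 14dpr Lepr was higher than at 5dpr, at 1.75 (SE 0.30, adjusted p = 0.000369) in immature and 1.47 (SE 0.33, adjusted p = 0.00643) in mature mice, or 1.61 without mature 5dpr replicate 1.

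Markers of other tissues moved in the same steps. All 10 skeletal muscle markers were lower at 2dpr than at 0dpr in both ages, with medians of −2.75 and −3.24, and they were higher at 0dpr than at baseline for 10 of 10 in mature and 0 of 10 in immature mice. Their summed level was 48424 to 65524 CPM at immature baseline, 56739 to 116440.0 at 0dpr, 11146 to 16709.8 at 2dpr and 9809 to 16603 at 14dpr, and in mature mice it was 27353 to 56732, 64022 to 133493, 8009 to 16882 and 11936 to 21481 CPM. The summed level of the 10 fat cell genes over the same stages was 3289 to 5302, 8292 to 15796, 2318 to 2989 and 1139.7 to 2355 CPM in immature and 3421 to 6576, 7619 to 11499, 1758 to 2244 and 1091 to 2566 CPM in mature mice. The 10 genes weigh unequally in it. At 0dpr the mean of Car3 alone was 7144 CPM in a mean sum of 11578.5 in immature mice. In mature mice it was 5635 CPM in a mean sum of 9197. All 7 macrophage markers were higher at 2dpr in both ages, and their sum spanned 392 to 604 CPM at 0dpr and 2634 to 3471 CPM at 2dpr in immature mice, and 414 to 518 and 3128 to 3522 CPM in mature mice. All 4 erythroid markers were lower at 2dpr in both ages. Of 6 endothelial markers 1 was lower in each age, Kdr, and 1 higher, Pecam1 in mature mice. Of 4 pericyte and smooth muscle markers 3 were lower in each age, and of 4 stromal markers 1 was lower in immature and 2 in mature mice. Over all genes 22.2% passed as lower in that step in immature and 24.9% in mature mice, so 1 of 4 stromal markers was near that share. The part of these tissues in the changes of the members and of the wider fat cell lists was not tested.

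**Figure D5:**
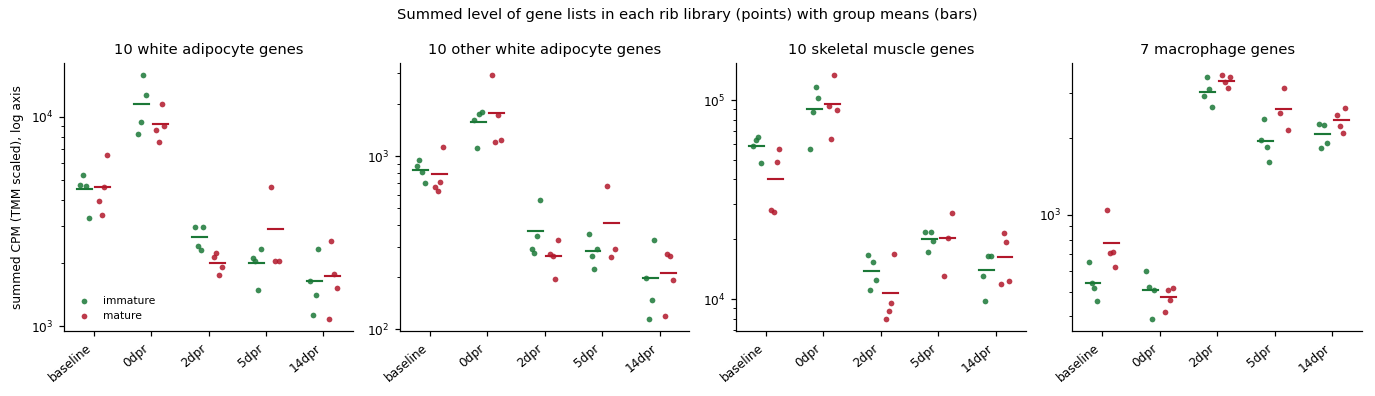
Summed CPM (y axis, log scale) of the 10 white adipocyte genes, 10 other white adipocyte genes, 10 skeletal muscle genes and 7 macrophage genes in each library, by stage (x axis) and age, with bars at group means. The first 3 sums are lower and the macrophage sum is higher in every 2dpr library than in every 0dpr library, with the immature macrophage sum at 2634 to 3471 CPM at 2dpr. Car3 weighs most in the first sum at 0dpr.

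Within groups the members differed in how closely they followed each marker list. The muscle markers were Acta1, Ckm, Myh1, Myh2, Myh4, Mylpf, Tnnt3, Tnni2, Actn3 and Atp2a1, and no separate list of slow muscle genes was followed. With group means subtracted, the correlation of a member with the mean of the muscle markers was 0.524 for Car3 and between −0.00278 and 0.247 for the other 9, whereas over all 39 libraries it ranged from 0.658 to 0.926, with Car3 highest. The same within-group correlation with the 10 other white adipocyte genes was 0.924 for Cidec, 0.906 for Fabp4 and 0.545 for Lep. With brown adipocyte markers it was 0.689 for Lpl, 0.574 for Fabp4, 0.572 for Plin1 and 0.546 for Pparg, and 0.0672 for Car3.

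The summed brown adipocyte markers were highest in mature 0dpr replicate 1, at 1768, 348, 684 and 509 CPM in replicates 1 to 4. In that library 7 of the 10 members were also at their highest of the group, Adipoq, Cfd, Fabp4, Plin1, Cidec, Lpl and Pparg, while Retn and Car3 were at their lowest. The brown markers Ucp1 and Cidea, both thermogenic genes, were at 0 reads in 3 and 2 libraries of the 39. The markers weigh unequally in the sum. The median over the 39 libraries was 107 CPM for Cox8b, 14.1 for Dio2, 5.62 for Prdm16 and 3.10 for Ucp1. It was 2.11 CPM for Cidea, 1.11 for Otop1 and 0.288 for Elovl3. At 0dpr against baseline 3 of 7 brown markers were higher in immature and 4 in mature mice, where 5.98% and 11.9% of all genes passed as higher. At 2dpr against 0dpr 4 were lower in immature and 6 in mature mice, where 22.2% and 24.9% of all genes passed as lower. The 5 tested epithelial markers of skin and mammary gland, of 8 listed, reached at most 61.1 CPM in sum. The part of brown fat in the members' values was not tested.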

How the data were processed

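Rib tissue of immature and mature mice at 5 stages was measured by stranded, paired-end RNAseq. Mapping to GRCm38 and counting per gene were done by the authors with STAR 2.5.2a, and the counts were deposited as whole reads, not normalized. The filter that leaves 21204 of the 48733 genes was not given in the sources used here; the filtered table keeps at least 99.7% of the counts of each library. The signal deposited by the authors is CPM scaled by TMM, which equals edgeR's own values within a relative difference of 4.99e-15. CPM are shares of a library, so a gene can fall where others rise.

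Tests were run in edgeR 4.0.16, with limma 3.58.1 and DESeq2 1.42.0, under R 4.3.3. Counts of all 39 libraries entered 1 edgeR quasi-likelihood fit with a coefficient per group. The method was tested on simulated counts with 200 changed genes, for 2dpr against 0dpr in immature mice. It recovered 53.0% of the 2-fold and 85.0% of the 4-fold changes, and 3 of 141 calls were false. A gene that did not pass may therefore still differ. The changed genes had a mean of at least 10 reads, and every other gene had the same mean in all groups. In the data 44.0% of all genes passed in that comparison, so these rates need not hold there. Each stage was compared with the one before and 14dpr with baseline, in each age, the ages at each stage, and the interaction of both. Log2 CPM for correlations used a prior count of 2. Alternatives were RLE size factors, DESeq2, other filters, only the libraries compared, a replicate block, and leaving out each library. All 10 members are described, and at most 4 genes per wider list and comparison are named, those with the largest change past the threshold at a mean of at least 1 CPM. The members and lists were chosen with earlier results of these data known. Gene positions are from the GRCm38 annotation, and upstream sequences from RefSeq. Same-numbered samples were compared by the correlation of their deviations in 15 pairs of groups. It was over 0.1 for every pair in 1 of them, the ages at 0dpr (0.109 to 0.207, mean 0.150). These values are low, and neither the labels nor the methods pair the samples. No 2 libraries of the same group were alike within sampling noise, and libraries of different groups were not compared in this way. No member's exons overlap those of another gene.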

Additional observations from a re-analysis of the deposited data

Results flagged for a closer look

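Each gene was checked in the 9 groups of 4 libraries for a library far from the other 3, and 5 of the 90 sets of 4 held one, where chance gives about 1 in 20. Mature baseline replicate 4 was the high one for Plin1, at 174 CPM with the next library at 88.4, and for Retn, at 132 CPM with the next at 71.4. Mature 0dpr replicate 2 was high for Lep, at 95.4 CPM with the next at 47.1. Mature 2dpr replicate 3 was low for Cidec, at 37.7 CPM with the next at 77.0. Immature 5dpr replicate 4 was low for Retn, at 6.62 CPM with the next at 19.7.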

How the results depend on the processing

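The 10 calls at 2dpr against 0dpr stayed in both ages under RLE size factors, DESeq2, both other filters, the replicate block and only the libraries compared. At 14dpr against baseline, 8 of 10 in immature mice (9 with only the libraries compared) and 9 of 10 in mature mice passed under the same alternatives. For 0dpr against baseline in immature mice, 7 members became 1 with the replicate block and 0 with only the libraries compared, and between 1 and 7 passed with a library left out. For 5dpr against 2dpr, 0 in immature mice became 4 with only the libraries compared and 2 with DESeq2, and 0 to 1 with a library left out, and 1 in mature mice became 0, 2 and 0 to 1 in the same order. For 14dpr against 5dpr in mature mice, 3 became 2 with RLE, which lost Adipoq, 1 with the replicate block, 1 with only the libraries compared and 0 to 3 with a library left out. The other 10 white adipocyte genes were run under these alternatives only after the data had been seen. At 0dpr against baseline, 3 in immature mice became 0 with the replicate block, 1 with only the libraries compared, 7 with DESeq2 and 1 to 7 with a library left out. In mature mice 2 became 4 with RLE, 5 with filterByExpr, 6 with only the libraries compared, 5 with DESeq2 and 1 to 5 with a library left out. In immature mice it was 7 without 0dpr replicate 2 and 1 without 0dpr replicate 1 or 3 or baseline replicate 2, 4 or 6, and in mature mice 1 without 0dpr replicate 1 and 5 without baseline replicate 4. Between the ages at 0dpr, 0 of 10 passed with and without the block. In the other pairs of groups, same-numbered samples were not all alike by the correlation of their deviations. Numbers 5 and 6 occur once each, as immature 5dpr replicate 5 and immature baseline replicate 6, and carry no weight in the block fit. For immature 0dpr against baseline the block fit thus overlaps with the fit that leaves out baseline replicate 6. With a library left out, Adipoq at 5dpr against 2dpr in mature mice ranged from −0.0175 to 0.93 and Cidec between the ages at 5dpr from −1.68 to 0.0093, both changing sign without mature 5dpr replicate 1. Fewer libraries leave fewer degrees of freedom; beyond that, the cause was not tested. Single results followed under every alternative were 92, those past the threshold, those with an unadjusted p under 0.05 and all 10 members against baseline: 1255 values kept their side of the threshold, 70 lost the call, 9 gained one and 2 changed sign. Over all 200 results of the 10 genes over every comparison, 50 changed sign in at least 1 fit without a library, 16 of them without mature 5dpr replicate 1, and 0 of the 50 had passed the threshold. Lep, with 13 reads at its lowest, had the lowest counts of the members.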

Other observations

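Dlk1, the preadipocyte surface protein that other mesenchymal cells also use, had low counts, with a median of 2.99 CPM over all libraries and 0 reads in 1. It was higher at 5dpr than at 2dpr, with a log2 fold change of 4.06 (SE 0.52, adjusted p = 1.95e-06) in immature and 4.86 (SE 0.62, adjusted p = 8.56e-07) in mature mice. In mature mice it was lower at 0dpr than at baseline (log2 fold change −1.53, SE 0.52, adjusted p = 0.0312) and higher at 14dpr than at 5dpr (log2 fold change 2.04, SE 0.48, adjusted p = 0.0101). Without mature 5dpr replicate 1 the mature rise at 5dpr was 5.14 (adjusted p = 8.68e-07), and the difference at 14dpr did not pass, at 1.77 (adjusted p = 0.083).

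Among brown adipocyte markers, Cidea was the 1 gene past the threshold between the ages, at 2dpr, with 15.8 ± 17.7 CPM in immature and 0.338 ± 0.411 CPM in mature mice (SD, n = 4; log2 fold change 5.23, SE 1.20, adjusted p = 0.0304). Its spread among immature libraries exceeds its mean. Of the white adipocyte members none passed at that stage, and the interaction of age with the step from 0dpr to 2dpr did not pass for Cidea (log2 fold change 6.21, SE 1.49, adjusted p = 0.115).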
